A study of Mus with 9 samples.

Results

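Transcripts of 9 genes for matricellular and adhesive glycoproteins were followed in samples described as mouse left atrium: periostin (Postn), tenascin C (Tnc), tenascin XB (Tnxb), fibronectin (Fn1), SPARC (Sparc), SPARC-like 1 (Sparcl1), the SPARC-related modular calcium-binding proteins 1 and 2 (Smoc1, Smoc2) and versican (Vcan). They were taken by symbol from a table of raw read counts for 55421 genes, each symbol matched 1 row, and all 9 passed the filter on low counts that kept 19326 genes. The MI_ART group had an infarction, made by permanent closure of the left anterior descending artery of the heart, and was given artesunate, an antimalarial drug derived from artemisinin. The MI group had the same infarction and was given vehicle, and the Sham group had the operation without the ligation and was given vehicle. Each group has 3 libraries, MI_ART 1 to 3, MI 2 to 4 and Sham 1 to 3. All animals are labelled wild-type, with the protocol giving male C57BL/6J mice of 8 to 10 weeks, and no transgene is named.

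The labels conflict in several places. One protocol gives artesunate, dissolved in dimethyl sulfoxide and injected into the peritoneum, at 25 mg/kg each day for 7 days from surgery. The series design text gives 10 mg/kg on alternate days, from 2 days before surgery to day 7 after it. The animals are called mice in some fields and rats in another, the number of groups and the kit for RNA extraction differ between fields, the Sham titles carry the letters AF, and the day of harvest is not stated. Whether the 3 libraries of a group are 3 animals is not stated outside the sample names. The p-values therefore reflect only how far these libraries vary, which may be technical.

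Matricellular proteins are secreted into the matrix but act mainly on cells, by binding integrins, growth factors and collagen rather than by bearing load. In the adult heart several of them are made at a low level and are produced in quantity by fibroblasts and other cells after injury, while fibronectin is a structural adhesive protein and versican a large proteoglycan that holds hyaluronan. Sparcl1, Smoc1 and Smoc2 share the calcium-binding domain of SPARC, and Tnxb belongs to the same family as Tnc.

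The libraries held 68046341 to 83685313 counts, and mitochondrial genes took 23.0% to 25.5% of them in MI_ART, 12.6% to 20.6% in MI and 37.7% to 43.1% in Sham. Levels are given in CPM, the reads on a gene relative to a library size that was scaled with edgeR's TMM factors (trimmed means of log ratios), which set the bulk of genes level between libraries. With total counts in its place, the median log2 fold change of all tested genes moved to 0.88 for MI versus Sham, 0.75 for MI_ART versus Sham and -0.11 for MI_ART versus MI, so a gene less than that far below Sham changes its sign. Chamber markers differed within groups and between MI and Sham. Myl2, the ventricular regulatory light chain, over Myl7, its atrial counterpart, was 5.45, 1.22 and 784 in MI_ART 1 to 3, 1.87, 2.36 and 0.460 in MI 2 to 4, and 3.64, 17.7 and 6.57 in Sham 1 to 3. This ratio was lower in every MI library than in every Sham library, and Myl2 had more CPM than Myl7 in every library except MI 4. Myl7 itself was at 1.96 CPM in MI_ART 3, which goes against an atrial label for that library. The part of chamber content in the differences from Sham was not tested. These are bulk samples, so fewer cells of a type and less RNA per cell cannot be told apart.

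After infarction 5 of the 9 genes rose and 2 fell in MI relative to Sham. Tnc, Fn1, Postn, Sparc and Vcan rose, in that order of fold change, from 122-fold for Tnc to 4.26-fold for Vcan. Sparcl1 and Smoc2 fell, by 1.79-fold and 1.78-fold, a direction that depends on the scaling, since with total counts both came out level with Sham (log2 0.0078 and 0.0242). A gene was called here, and is said to have risen or fallen, at a Benjamini-Hochberg adjusted p under 0.05 in edgeR's quasi-likelihood test, adjusted over all 19326 genes. Of all tested genes 33.1% were called in this comparison, 18.8% higher and 14.3% lower (3631 and 2768 genes, against 9527 and 644 with total counts). With total counts 6 of the 9 genes were called higher, Smoc1 among them, and 0 lower. Under TMM scaling the libraries of both groups did not overlap for any of the 9 genes, 6 higher and 3 lower, against 48.9% of all genes without overlap. Relative to total counts the groups overlapped for Sparcl1, Smoc2 and Tnxb. The median log2 fold change was 2.09 over the 9 genes and 0.04 over all tested genes.

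**Figure D1:**
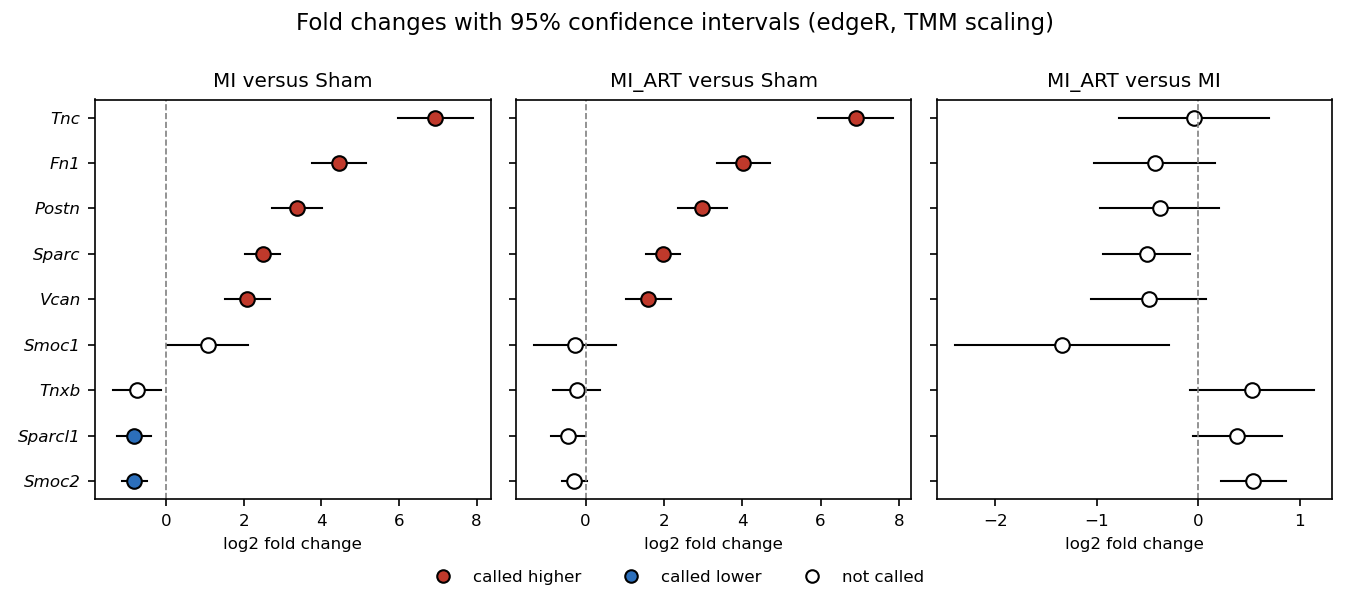
Log2 fold changes of the 9 genes in 3 comparisons with 95% confidence intervals from edgeR under TMM scaling, filled where the adjusted p was under 0.05. The upper 5 genes lie well above 0 over Sham in both infarcted groups, no gene is called in MI_ART versus MI, and the open and lower points for Tnxb, Sparcl1, Smoc2 and, in MI_ART, Smoc1 move above 0 over Sham when total counts are used.

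Tenascin C, a large glycoprotein that loosens cell attachment and is nearly absent from the healthy adult heart, was the gene with the largest fold change of the 9. Tnc (chromosome 4, 63959785 to 64047015, GRCm38.p6) had 182, 170 and 142 CPM in MI_ART 1 to 3, 168, 217 and 124 CPM in MI 2 to 4, and 1.60, 1.90 and 0.651 CPM in Sham 1 to 3. Every infarcted library was far above every Sham library, and the Sham values rest on 87, 96 and 34 reads. Tnc averaged 170 ± 46.3 CPM in MI and 1.38 ± 0.651 CPM in Sham (SD, n = 3 each), 122-fold higher in MI with a 95% interval of 62.8 to 239 (log2 6.94, SE 0.43, edgeR adjusted p 3.16e-05). In MI_ART the mean was 165 ± 20.2 CPM, 119-fold above Sham (edgeR adjusted p 5.12e-05).

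Fibronectin, the adhesive scaffold on which cells and other matrix proteins assemble, was next. Fn1 (chromosome 1, 71585473 to 71653280) had 826, 477 and 811 CPM in MI_ART 1 to 3, 997, 1033 and 820 CPM in MI 2 to 4, and 31.3, 55.8 and 42.9 CPM in Sham 1 to 3. The Sham libraries lay far below the rest, and among the infarcted ones MI_ART 2 was the lowest. Fn1 averaged 950 ± 114 CPM in MI and 43.3 ± 12.3 CPM in Sham, 21.9-fold higher in MI with an interval of 13.6 to 35.3 (log2 4.45, SE 0.31, edgeR adjusted p 4.90e-05). It averaged 705 ± 198 CPM in MI_ART, 16.3-fold above Sham (edgeR adjusted p 1.17e-04).

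Periostin, secreted by activated fibroblasts and a ligand of integrins, rose 10.3-fold. Postn (chromosome 3, 54359267 to 54391041) had 729, 771 and 828 CPM in MI_ART 1 to 3, 1080, 1318 and 633 CPM in MI 2 to 4, and 90.2, 122 and 83.1 CPM in Sham 1 to 3. Its level in Sham was well above detection, and MI 4 was the lowest infarcted library. The means were 776 ± 49.7 CPM in MI_ART, 1010 ± 347 CPM in MI and 98.3 ± 20.5 CPM in Sham. The interval for MI over Sham was 6.59 to 16.0 (log2 3.36, SE 0.29, edgeR adjusted p 8.76e-05), and MI_ART was 7.90-fold above Sham (edgeR adjusted p 1.98e-04).

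SPARC, a collagen-binding protein needed for the processing and deposition of collagen in the mouse heart, rose in the same comparison. Sparc (chromosome 11, 55394159 to 55420080) had 1374, 1351 and 1375 CPM in MI_ART 1 to 3, 1506, 1943 and 2384 CPM in MI 2 to 4, and 395, 324 and 324 CPM in Sham 1 to 3. The 3 MI_ART libraries were within a narrow band that lay below every MI library and above every Sham library. Sparc averaged 1944 ± 439 CPM in MI and 347 ± 41.4 CPM in Sham, 5.60-fold higher in MI (interval 4.09 to 7.65, log2 2.48, SE 0.20, edgeR adjusted p 7.44e-05). It averaged 1367 ± 13.5 CPM in MI_ART, 3.93-fold above Sham (edgeR adjusted p 2.32e-04).

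Versican, a chondroitin sulfate proteoglycan that binds hyaluronan and makes up provisional matrix, rose least among the 5. Vcan (chromosome 13, 89655309 to 89743027) had 75.1, 48.9 and 54.9 CPM in MI_ART 1 to 3, 88.6, 108 and 54.3 CPM in MI 2 to 4, and 19.8, 20.3 and 18.7 CPM in Sham 1 to 3. The Sham libraries were close together and below all the others, and MI 4 fell among the MI_ART libraries. The means were 59.6 ± 13.7 CPM in MI_ART, 83.6 ± 27.2 CPM in MI and 19.6 ± 0.859 CPM in Sham. The 4.26-fold difference of MI over Sham had an interval of 2.83 to 6.42 (log2 2.09, SE 0.26, edgeR adjusted p 3.93e-04), and MI_ART was 3.04-fold above Sham (edgeR adjusted p 0.00247).

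**Figure D2:**
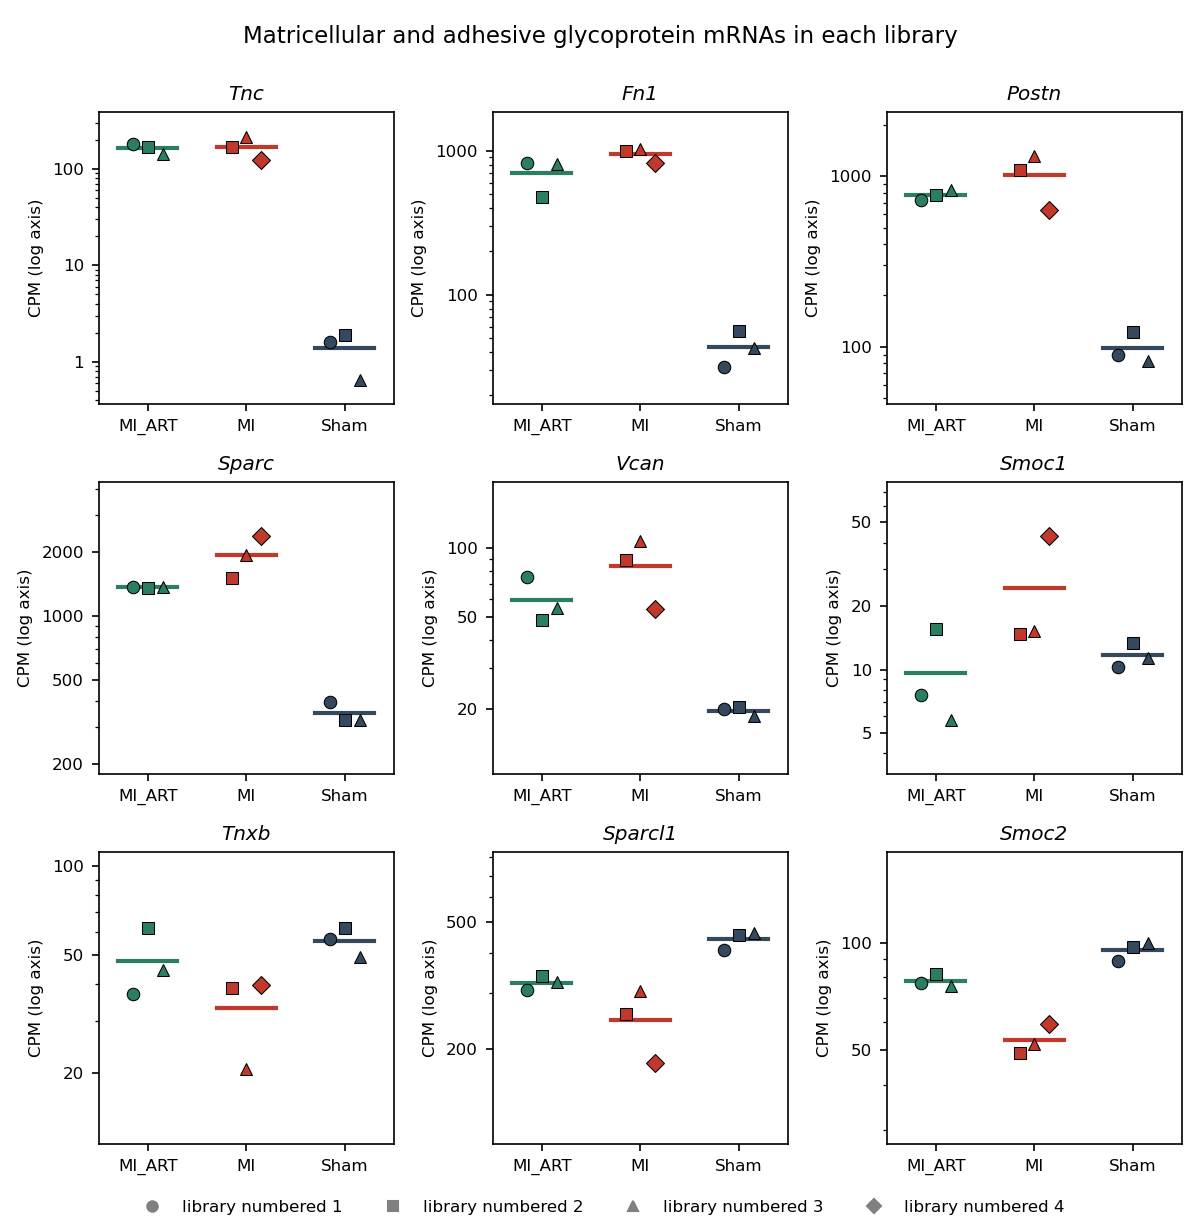
Level of each gene in CPM (log axis, a different range for each gene) in each library, with bars at the group means and symbols for the library number. Tnc, Fn1, Postn, Sparc and Vcan stand above Sham in every infarcted library; Tnxb, Sparcl1 and Smoc2 average lowest in MI under this scaling, an order that total counts turn round relative to Sham, and Smoc1 is high in MI 4.

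Sparcl1 and Smoc2, relatives of SPARC, were lower in MI than in Sham under TMM scaling, and level with it when total counts were used. Sparcl1 (chromosome 5, 104079108 to 104114088), a secreted counterpart of SPARC that limits cell adhesion, had 307, 338 and 326 CPM in MI_ART 1 to 3, 258, 303 and 181 CPM in MI 2 to 4, and 411, 456 and 461 CPM in Sham 1 to 3. Under TMM scaling the groups did not overlap, with MI_ART between the others, although MI 3 and MI_ART 1 nearly met. With total counts MI_ART averaged above both (log2 0.29 over Sham), but MI 3 was above MI_ART 1 and MI_ART 3. The means were 324 ± 16.0 CPM in MI_ART, 248 ± 61.7 CPM in MI and 443 ± 27.9 CPM in Sham. In edgeR's quasi-likelihood test MI was 1.79-fold lower than Sham (log2 -0.84, SE 0.20, adjusted p 0.00906), against log2 0.0078 with total counts and an adjusted p of 0.116 at log2 -0.44 with total counts that leave out mitochondrial genes.

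Smoc2 (chromosome 17, 14279490 to 14404790), a secreted calcium-binding protein linked to fibrosis in the mouse kidney, had 76.8, 81.8 and 75.4 CPM in MI_ART 1 to 3, 49.2, 52.2 and 59.3 CPM in MI 2 to 4, and 89.0, 96.9 and 99.4 CPM in Sham 1 to 3. Each group was tight, again without overlap, with MI_ART in the middle under TMM scaling and above both other groups with total counts (log2 0.46 over Sham). The means were 78.0 ± 3.36 CPM in MI_ART, 53.6 ± 5.21 CPM in MI and 95.1 ± 5.44 CPM in Sham, and MI was 1.78-fold lower than Sham (log2 -0.83, SE 0.14, edgeR adjusted p 0.00190), a difference that total counts turned to log2 0.02. Before any scaling the reads on Smoc2 were 6228, 6549 and 6122 in MI_ART, 4319, 4869 and 5506 in MI and 4829, 4909 and 5193 in Sham, so MI and Sham overlapped in raw reads.

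Tenascin XB, which joins collagen fibrils and whose loss causes a form of Ehlers-Danlos syndrome in humans, was not called. Tnxb (chromosome 17, 34660453 to 34719815) had 37.0, 61.7 and 44.5 CPM in MI_ART 1 to 3, 38.8, 20.7 and 39.8 CPM in MI 2 to 4, and 56.6, 62.1 and 49.4 CPM in Sham 1 to 3. MI 3 was the lowest library, and MI and Sham did not overlap under TMM scaling. The means were 47.7 ± 12.6 CPM in MI_ART, 33.1 ± 10.8 CPM in MI and 56.0 ± 6.39 CPM in Sham, with log2 -0.76 for MI over Sham (SE 0.27, edgeR adjusted p 0.0581) and 0.07 with total counts. Without MI 4 the edgeR adjusted p was 0.0435 at log2 -0.91, and DESeq2 gave 0.0339 at log2 -0.75. The annotated span of Tnxb overlaps the pseudogene Cyp21a2-ps, and spans of 7 of the 9 genes overlap another annotated gene, so their counts are uncertain where reads could fall in either.

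Smoc1, known in frogs as an antagonist of bone morphogenetic protein signalling, was the gene whose result rested on 1 library. Smoc1 (chromosome 12, 81026808 to 81186414) had 7.55, 15.6 and 5.74 CPM in MI_ART 1 to 3, 14.8, 15.3 and 43.2 CPM in MI 2 to 4, and 10.2, 13.4 and 11.4 CPM in Sham 1 to 3. MI 4 had by far the most, and the other MI libraries lay just above Sham. The means were 9.63 ± 5.25 CPM in MI_ART, 24.4 ± 16.2 CPM in MI and 11.7 ± 1.59 CPM in Sham. MI over Sham was log2 1.07 (SE 0.47, edgeR adjusted p 0.110), and log2 0.37 (adjusted p 0.486) without MI 4.

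MI 4 and MI_ART 3, the extremes of Smoc1, were also the extremes of the atrial light chain. Myl7 was at 173, 803 and 1.96 CPM in MI_ART 1 to 3, 453, 346 and 989 CPM in MI 2 to 4, and 821, 167 and 576 CPM in Sham 1 to 3. Among the infarcted libraries the order of Smoc1 was MI 4, MI_ART 2, MI 3, MI 2, MI_ART 1 and MI_ART 3, and that of Myl7 differed from it only in the order of MI 2 and MI 3. In Sham the order was not shared, since Sham 2 had the least Myl7 and the most Smoc1. The summed level of the atrial marker list, which includes Myl7, was 25098 CPM in MI 4, against 13708 in MI 2 and 13458 in MI 3. Nppa, also in that list, alone averaged 14525 CPM in MI. Bmp10, another gene of the list, was at 42.0 CPM in MI 4, 0 in MI 2 and MI 3, and no more than 0.200 CPM in any other library. The part of chamber content in the Smoc1 values was not tested. For Sparc, MI_ART 3 and MI_ART 2 had 1375 and 1351 CPM at the lowest and highest Myl7 of their group, while MI 4 was highest of all libraries in Sparc and in Myl7, and Sham 1 was the highest Sham library in both.

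**Figure D3:**
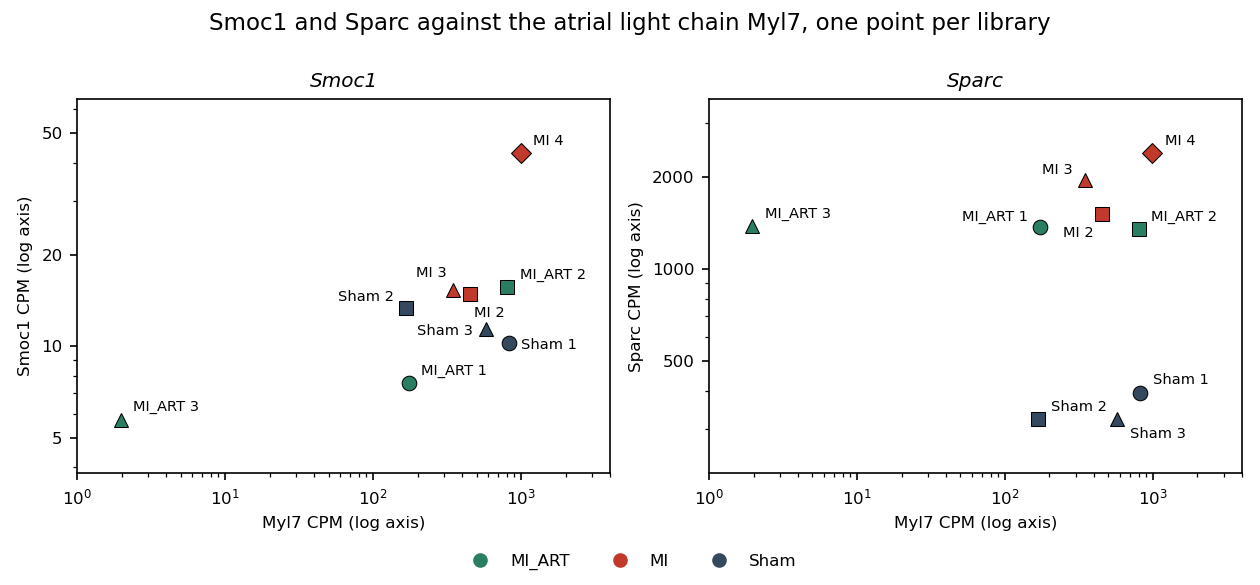
Smoc1 and Sparc (CPM, log axes) against Myl7, the atrial regulatory light chain, 1 point per library. MI 4 is highest in Smoc1 and in Myl7 and MI_ART 3 lowest in both, while the Sparc levels of the 3 MI_ART libraries are nearly equal across that range and MI 4 is highest in Sparc too.

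Artesunate was compared with vehicle after infarction, MI_ART versus MI. None of the 9 genes was called by edgeR at the adjusted threshold, where 2 of 19326 genes (0.0103%) were called in all. An unadjusted p under 0.05 was reached by 3 of the 9, Smoc2, Smoc1 and Sparc, and by 6.96% of all genes. DESeq2 called 1 of the 9, Smoc2, with an adjusted p of 0.0354, and 93 genes in all, 0.524% of the 17745 to which it gave an adjusted p. Under TMM scaling the libraries of both groups did not overlap for 3 of the 9 genes, 2 higher and 1 lower, against 13.9% of all genes. The MI libraries also enter MI versus Sham, so both comparisons share them.

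Smoc2 was 1.46-fold higher in MI_ART than in MI (log2 0.54, 95% interval 0.23 to 0.86, edgeR p 0.00349, adjusted p 0.650). Sparcl1 was 1.31-fold higher without overlap, at log2 0.39 with an interval of -0.05 to 0.82 and an edgeR adjusted p of 0.732. Sparc was 1.42-fold lower without overlap (log2 -0.51, interval -0.94 to -0.08, edgeR p 0.0245, adjusted p 0.709). These are the genes whose groups separated, and none passed the adjustment over all genes in edgeR. For Smoc1 the difference was log2 -1.34 with an interval of -2.40 to -0.29 (edgeR p 0.0178, adjusted p 0.709), the groups overlapped, and without MI 4 it was log2 -0.65.

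The other 5 genes overlapped between MI_ART and MI. Fn1 differed by log2 -0.43 (interval -1.03 to 0.17, edgeR adjusted p 0.753), Postn by -0.38 (-0.97 to 0.20, 0.766) and Vcan by -0.49 (-1.05 to 0.08, 0.732). Tnxb differed by log2 0.53 (-0.08 to 1.14, edgeR adjusted p 0.732). Tnc differed by log2 -0.04 with an interval of -0.78 to 0.69 (edgeR adjusted p 0.979), and its sign turned when MI 3 or MI_ART 3 was left out. These intervals leave room for changes in either direction, so no likeness of both groups is shown.

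With artesunate, the 5 genes called higher in MI versus Sham were also called higher in MI_ART versus Sham, and none was called lower. Of all tested genes 12.9% were called higher and 7.41% lower in MI_ART versus Sham (2488 and 1433 genes, against 8032 and 124 with total counts). Under TMM scaling 48.2% of them had no overlap between groups, against 7 of the 9 genes, 5 higher and 2 lower. The median log2 fold change of the 9 was 1.60, against 0.01 over all tested genes. Tnc, Fn1, Postn, Sparc and Vcan were called higher than Sham in both infarcted groups under all 18 alternatives, with log2 ranges in MI of 6.60 to 7.75 for Tnc and 1.87 to 2.93 for Vcan. Both comparisons with Sham use the same 3 Sham libraries. Side by side, log2 over Sham in MI_ART and in MI was 6.89 and 6.94 for Tnc, 4.02 and 4.45 for Fn1, 2.98 and 3.36 for Postn, 1.98 and 2.48 for Sparc, and 1.60 and 2.09 for Vcan.

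The other 4 genes were not called in MI_ART versus Sham, and each has a sign that total counts turn. Sparcl1 was at log2 -0.45 over Sham in MI_ART (edgeR adjusted p 0.135), called at 0.0132 without MI 4, and at 0.29 with total counts. Smoc2 was at log2 -0.29 (edgeR adjusted p 0.194), called at 0.0464 without MI 4, and at 0.46 and called higher (0.0382) with total counts. Tnxb was at log2 -0.23 (edgeR adjusted p 0.615) and Smoc1 at -0.28 (0.733), against 0.50 and 0.45 with total counts.

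Ratios between related genes in the same library do not depend on the scaling. Tnc over Tnxb, in counts, was 4.91, 2.76 and 3.20 in MI_ART 1 to 3, 4.33, 10.5 and 3.11 in MI 2 to 4, and 0.0283, 0.0305 and 0.0132 in Sham 1 to 3. The ratio of reads was far below 1 in every Sham library and above 1 in every infarcted library. The ratio was 231-fold higher in MI than in Sham and 156-fold higher in MI_ART than in Sham. Each of these separations gave p = 0.1 in a two-sided exact permutation test, the smallest that 3 against 3 allows, and 0.214 adjusted over 15 ratio comparisons.

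Sparc over Sparcl1 was 4.48, 3.99 and 4.22 in MI_ART 1 to 3, 5.83, 6.40 and 13.1 in MI 2 to 4, and 0.962, 0.709 and 0.701 in Sham 1 to 3. Here the 3 groups were fully apart, with MI_ART between MI and Sham. The ratio was 10.1-fold higher in MI than in Sham, 5.40-fold higher in MI_ART than in Sham and 1.87-fold lower in MI_ART than in MI, each at the smallest exact permutation p of 0.1 (0.214 adjusted). Sparc over Fstl1, a secreted relative of SPARC that rose with it, was 2.70, 2.37 and 2.57 in MI_ART, 2.03, 2.18 and 3.34 in MI, and 2.96, 2.06 and 2.52 in Sham, with overlap in every comparison (exact permutation p 0.9 in each).

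Smoc1 over Smoc2 was 0.0983, 0.191 and 0.0761 in MI_ART 1 to 3, 0.302, 0.294 and 0.728 in MI 2 to 4, and 0.115, 0.138 and 0.115 in Sham 1 to 3. All 3 MI libraries, not MI 4 alone, were above every MI_ART and every Sham library. Under TMM scaling MI 2 and MI 3 had 1.27 and 1.31 of the Sham mean of Smoc1, and 0.517 and 0.549 of that of Smoc2. Their high ratio thus came more from Smoc2 than from Smoc1 under that scaling, and MI_ART 2 had more Smoc1 CPM than either. With total counts this did not hold, since Smoc2 in MI was level with Sham (log2 0.0242) and Smoc1 was called higher. The ratio was 3.28-fold higher in MI than in Sham and 3.56-fold lower in MI_ART than in MI (exact permutation p 0.1 each, 0.214 adjusted), and it overlapped between MI_ART and Sham (p 0.8). Postn over Tgfbi, its closest relative in the list, overlapped in all 3 comparisons (exact permutation p 0.4 for MI versus Sham, 1 for MI_ART versus MI and 0.2 for MI_ART versus Sham).

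**Figure D4:**
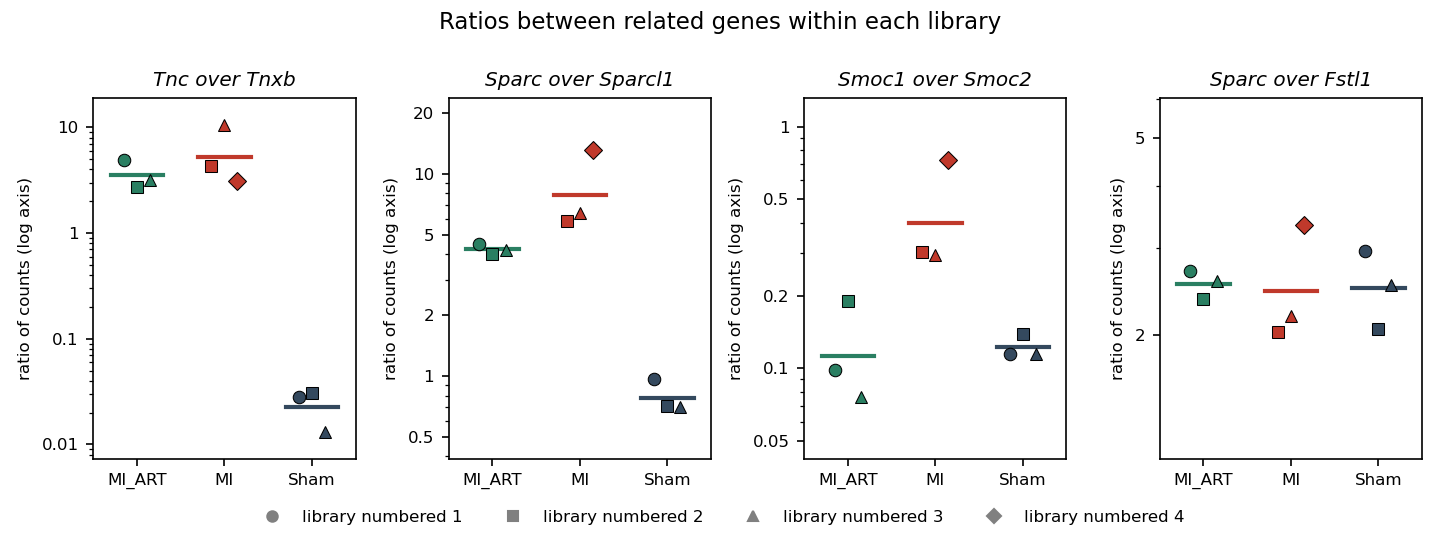
Ratio of counts between related genes within each library (log axes), with bars at the group means. Tnc over Tnxb and Sparc over Sparcl1 are higher than Sham in all 6 infarcted libraries, Smoc1 over Smoc2 is higher in the 3 MI libraries than in all others, and Sparc over Fstl1 overlaps between all groups.

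Together the 9 genes took 0.409% ± 0.0265 of all counts in MI_ART, 0.564% ± 0.0676 in MI and 0.0775% ± 0.00891 in Sham (SD, n = 3 each). Within the reads of these 9 genes, the share on Sparcl1 was 9.19% in MI_ART, 5.46% in MI and 39.7% in Sham. Fn1 took 19.8%, 21.1% and 3.87% in the same order of groups, and Sparc took 38.8%, 43.2% and 31.2%. Gene lengths were not given, so these are shares of reads and not of molecules, and a gene said to have the most reads need not have the most transcripts.

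Other genes of these families and their receptors were counted in lists. Beside these counts, 18.8% of all tested genes were called higher and 14.3% lower in MI versus Sham, and 12.9% and 7.41% in MI_ART versus Sham. In MI_ART versus MI 6.96% of all genes had an unadjusted p under 0.05. Of 8 tested relatives of the 9 genes (10 listed), 3 rose in MI relative to Sham and none fell, with a median log2 of 1.93. Fstl1 averaged 538 CPM in MI_ART, 782 in MI and 140 in Sham, and rose 5.60-fold in MI (edgeR adjusted p 4.83e-05). Tgfbi, the relative of periostin, averaged 124, 163 and 26.0 CPM in the same order and rose 6.28-fold (edgeR adjusted p 4.88e-04). Tnn, tenascin N, stayed near 1 CPM or below and rose 7.49-fold (edgeR adjusted p 0.0199).

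In MI_ART versus Sham the same 3 relatives were called higher (3.86-fold, 4.76-fold and 6.14-fold) together with Bcan, brevican, so that 4 were called, 2 when any of Sham 1, Sham 2, Sham 3 or MI_ART 1 was left out. Bcan averaged 1.34 CPM in MI_ART, 0.279 in MI and 0.0255 in Sham, with 3.48, 0.350 and 0.185 CPM in MI_ART 1 to 3, so that MI_ART 1 carries the mean, and the Sham mean is under the floor of 3 counts in a Sham library, so no fold is given (edgeR adjusted p 0.0321). In MI_ART versus MI none of the relatives was called by edgeR or DESeq2, and 1 had an unadjusted p under 0.05.

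Among 15 receptors that bind these proteins, 9 rose in MI relative to Sham and 1 fell, with a median log2 of 1.37. The fibronectin receptor chain Itga5 rose 4.47-fold (edgeR adjusted p 3.52e-04), and so did Itgb3 (4.86-fold), Itga4 (3.87-fold), Itgb8 (2.59-fold) and Itgb5 (2.18-fold), all integrin chains. Cd44, the hyaluronan receptor, rose 5.75-fold (edgeR adjusted p 1.17e-04), the heparan sulfate proteoglycans Sdc1 and Sdc4 rose 4.45-fold and 3.34-fold, and Stab1, a scavenger receptor for SPARC on macrophages and endothelium, rose 4.65-fold. Itgb6, an epithelial integrin chain that binds fibronectin and tenascin C, fell 3.27-fold (edgeR adjusted p 0.0138, not called without Sham 3 or with total counts). Itgb1, the receptor chain with the most reads, averaged 496 CPM in MI_ART, 516 in MI and 380 in Sham and was not called (edgeR adjusted p 0.386 for MI versus Sham). In MI_ART versus Sham 8 receptors were called higher and none lower, and in MI_ART versus MI none was called by edgeR or DESeq2, with 2 at an unadjusted p under 0.05.

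Of 12 partners and proteases of versican and hyaluronan, 6 rose in MI relative to Sham and 1 fell, with a median log2 of 0.75. Adamts4, a protease that cleaves versican, was at 9.35, 6.32 and 7.33 CPM in MI_ART 1 to 3, 9.06, 13.1 and 8.39 CPM in MI 2 to 4, and 0.313, 0.237 and 0 CPM in Sham 1 to 3, and rose 54.8-fold by the fit in MI (edgeR adjusted p 3.42e-04). Other proteases of this kind rose less, Adamts1 by 1.75-fold and Adamts15 by 1.95-fold, and Adamts5 was at log2 -0.39 (edgeR adjusted p 0.242; all versus Sham). The hyaluronan synthases Has1 and Has2 rose 7.77-fold and 4.47-fold, and Tnfaip6, which modifies hyaluronan, rose 5.86-fold. Hapln1, a link protein between hyaluronan and proteoglycans such as versican, fell 5.17-fold (edgeR adjusted p 0.00598) at levels of 0.698 CPM in MI_ART, 0.183 in MI and 0.953 in Sham.

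In MI_ART versus Sham 4 of these partners were called higher, Adamts4, Has1, Has2 and Tnfaip6, and none lower, with 7 called higher when MI 4 was left out. None was called by edgeR or DESeq2 in MI_ART versus MI, and 3 had an unadjusted p under 0.05. Without MI 3, 2 and not 1 were called lower in MI versus Sham.

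**Figure D5:**
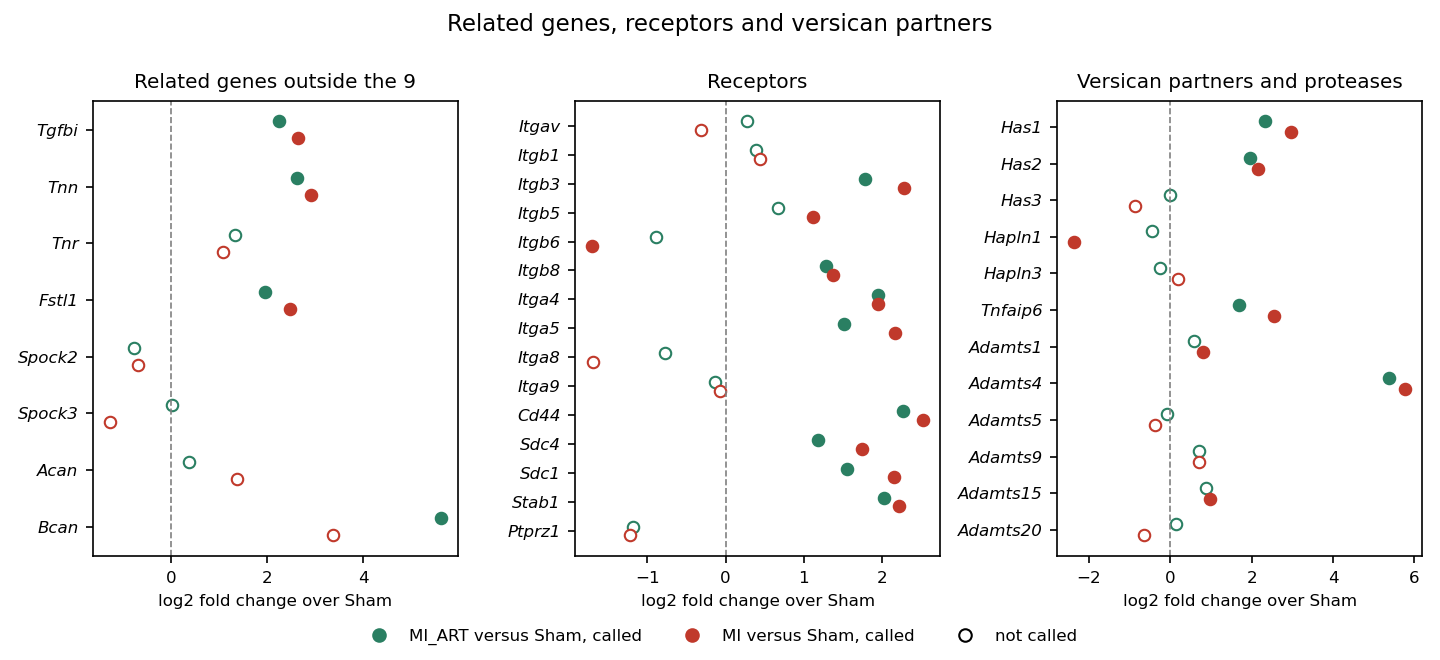
Log2 fold change over Sham in MI_ART (green, upper point of each gene) and in MI (red) for relatives of the 9 genes, their receptors and the partners and proteases of versican, filled where called. Most filled points lie to the right of 0; those of Itgb6 and Hapln1 in MI lie to the left, and the Bcan value rests on very few Sham reads.

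Of 22 other adhesive and elastic-fibre glycoproteins, 15 rose and 2 fell in MI versus Sham, with a median log2 of 0.93. The genes with the most reads were Fbln2 (fibulin 2), at 348 CPM in MI_ART, 442 in MI and 98.9 in Sham, which rose 4.47-fold in MI (edgeR adjusted p 1.46e-04), and Lamb2 (laminin beta 2), at 268, 264 and 310 CPM, which was not called (edgeR adjusted p 0.521, log2 -0.23). In MI_ART versus Sham 9 were called higher and 1 lower, with 14 higher and 2 lower without MI 4, 5 higher without Sham 2 and none lower without MI_ART 1. None was called in MI_ART versus MI by edgeR or DESeq2, with 5 at an unadjusted p under 0.05. The calls to the lower side in MI versus Sham numbered 0 with total counts.

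Markers of several cell types were counted in the same comparisons. Their counts stand beside 18.8% of all genes called higher and 14.3% lower in MI versus Sham, and 12.9% and 7.41% in MI_ART versus Sham. Of 10 macrophage markers all 10 rose in MI versus Sham and all 10 in MI_ART versus Sham, and their summed level ran from 1917 to 3675 CPM in MI_ART, 2814 to 3274 CPM in MI and 345 to 525 CPM in Sham. Lyz2 and C1qb, the genes with the most reads in that list, rose 7.14-fold and 9.03-fold in MI. Of 10 markers of activated fibroblasts and myofibroblasts, 7 rose and 1 fell in MI versus Sham (6 and 1 in MI_ART versus Sham), with sums of 1347 to 1468 CPM in MI_ART, 1319 to 2896 CPM in MI and 273 to 928 CPM in Sham. Col1a1 rose 22.9-fold in MI (edgeR adjusted p 6.09e-05), and Acta2, smooth muscle actin, did not pass (edgeR adjusted p 0.522).

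Markers of resting fibroblasts summed to 2039 to 2951 CPM in MI_ART, 1683 to 2243 CPM in MI and 3202 to 3521 CPM in Sham. Of these 10 markers 3 rose and 3 fell in MI versus Sham (2 and 1 in MI_ART versus Sham). Gsn (gelsolin) fell 3.50-fold, and Dcn (decorin) fell 1.49-fold, which total counts turned to log2 0.28. Pericyte and smooth muscle markers gave 1 higher and 4 lower of 10 in MI versus Sham (0 and 4 in MI_ART versus Sham), with sums of 2346 to 2894 CPM in MI_ART, 2736 to 5994 CPM in MI and 2505 to 3162 CPM in Sham. Rgs5 fell 2.90-fold and Des, also a muscle gene, rose 2.40-fold in MI.

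Endothelial markers gave 0 higher and 3 lower of 10 in MI versus Sham (0 and 1 in MI_ART versus Sham), and the 3 called lower in MI were Kdr, Tek and Flt1, whose sign total counts turned. Their sums were 775 to 819 CPM in MI_ART, 768 to 1129 CPM in MI and 888 to 927 CPM in Sham, and Pecam1 and Cdh5, with the most reads, were not called (edgeR adjusted p 0.401 and 0.526 for MI versus Sham). No marker of these 5 cell types was at 0 counts in a whole group. In MI_ART versus MI none of the markers of these 5 cell types was called by edgeR, with 0 macrophage, 5 activated fibroblast, 3 resting fibroblast, 5 pericyte and smooth muscle and 3 endothelial markers at an unadjusted p under 0.05. Their part in the levels of the 9 genes was not tested.

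The genes most like each of the 9 were sought among 12874 genes by the root mean square difference of log2 CPM over the 9 libraries, each gene centred on its own mean, where 0 is an identical pattern. Sparcl1 had the closest neighbour, Plxna2 at 0.06. Sparc followed with Tubb2a at 0.09 and Cdc25b at 0.13, and Smoc2 with Khk at 0.10 and Polg2 at 0.12. Tnxb was nearest to Rgl3 (0.13) and Inha (0.16), Vcan to Rai14 (0.16) and Rbl1 (0.18), and Fn1 to Mcm10 (0.19) and Kif14 (0.24). Postn was nearest to Thbs1 (0.28) and Nusap1 (0.30), Smoc1 to Wnt9b (0.27) and Rspo1 (0.30), and Tnc to Mefv (0.38) and Ttk (0.52). Within the 9 genes the closest pair was Sparcl1 and Smoc2 at 0.25, Tnxb was nearest to Smoc2 (0.31), Sparc to Vcan (0.44) and Postn to Fn1 (0.60), while Smoc1 and Tnc were no nearer than 0.94 and 1.40 to any other. All these values come from the same 9 libraries and carry the differences between the groups.

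The neighbours of Smoc1 were picked for likeness over these same libraries, so their high value in MI 4 follows from that choice. Wnt9b was at 0.493, 1.07 and 0.493 CPM in MI_ART 1 to 3, 1.32, 1.54 and 3.36 CPM in MI 2 to 4, and 0.608, 1.07 and 1.26 CPM in Sham 1 to 3. Rspo1, a secreted enhancer of Wnt signalling, was at 1.81, 4.12 and 0.998 CPM in MI_ART 1 to 3, 3.38, 2.60 and 7.21 CPM in MI 2 to 4, and 3.34, 2.78 and 2.70 CPM in Sham 1 to 3. Both were highest in MI 4, as Smoc1 was, and lowest in MI_ART 3, where Wnt9b was barely below its level in MI_ART 1.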

How the data were processed

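The authors deposited whole-number read counts, 1 row per Ensembl gene, per the file headers, and no normalization was found in them. Per the submitters' processing notes the build was GRCm38, and the tools were featureCounts 1.5.0-p3, DESeq 1.8.3 and HISAT without a version. Per the labels' protocols, a SMARTer kit for mRNA was used on 1.3 µg of RNA per library. Strand setting and treatment of multi-mapping reads are not given in the sources read. All 9 columns of the table were used, and the per-sample files equal it at a tolerance of 0.

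The counts were fitted with edgeR 4.0.16 (R 4.3.3): filterByExpr, TMM scaling, and 1 quasi-likelihood fit of all 9 libraries with a mean per group, tested on simulated data. The p-values were adjusted by Benjamini-Hochberg over 19326 genes, with a threshold of 0.05. CPM is the count over the TMM-scaled library size, and errors are SD over 3 libraries, or SE of the fit. A floor of 3 counts per library is 0.0322 to 0.0592 CPM and covers counting error only. Log2 ratios of 2 genes' counts were compared with an exact permutation test (two-sided). DESeq2 1.42.0, other scalings, no filter, 2-group fits, a replicate term and fits without single libraries were alternatives. The same alternatives for counts over the gene lists were added after seeing the data.

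The 9 genes and all lists were chosen with earlier results of these data known. Named are all 9 genes, in each list the 2 of highest mean CPM and, for relatives, receptors and versican partners, every called gene, and for each of the 9 the 2 most alike genes of at least 1 CPM, with a prior count of 2. Some genes picked this way are not reported here. Bmp10, Kcna5, Lyve1, Kdr, Tek and Flt1 were named after their values were seen. Coordinates are those of RefSeq on GRCm38.p6. No sequences were at hand to print.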

Additional observations from a re-analysis of the deposited data

How the results depend on the processing

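Over 18 alternatives, the log2 fold changes of the 9 genes kept direction and side of the threshold in 153 of 162 values for MI versus Sham, 159 of 162 for MI_ART versus MI and 150 of 162 for MI_ART versus Sham. Total counts turned Smoc2 (0.0242), Sparcl1 (0.0078) and Tnxb (0.0745) in MI versus Sham, and Smoc1 (0.45), Smoc2 (0.46), Sparcl1 (0.29) and Tnxb (0.50) in MI_ART versus Sham; without mitochondrial genes in the total, Smoc1 (0.11), Smoc2 (0.11) and Tnxb (0.16) turned in the second. Tnc in MI_ART versus MI ranged from -0.22 to 0.18 with 1 library left out, turning without MI 3 (0.18) or MI_ART 3 (0.05). Genes called lower in MI versus Sham numbered 0 with total counts and 1 without mitochondrial genes in the total, against 2. In MI_ART versus Sham 1 was called lower with only both groups fitted, with a replicate block or without MI 4 and MI_ART 3, and 0 to 2 with 1 library left out (2 without MI 4), against 0. In MI_ART versus MI DESeq2 called 1 higher, against 0. Deviations from the group means correlated at r -0.0354 to 0.0932 over 7 same-numbered pairs and at -0.121 to 0.108 over 20 other pairs. The best match had the same number in 7 of 14 cases, and a pairing by number was not shown. Number 4 occurs only in MI 4, so the replicate block fits that library by itself. Among the 9 genes the block changed no call of MI versus Sham except Tnxb (log2 -1.05, edgeR adjusted p 0.00970), which was also called without MI 4. Among the other adhesive and elastic-fibre glycoproteins the block gave 4 lower calls, against 2. Over all genes, calls ranged from 2854 to 9527 higher and 644 to 3297 lower in MI versus Sham, 0 to 52 and 0 to 41 in MI_ART versus MI, and 1596 to 8032 and 124 to 2896 in MI_ART versus Sham (52 and 41 with DESeq2; without mitochondrial genes in the total, 5918 and 1388 for MI and 4633 and 398 for MI_ART over Sham). Calls lower in MI_ART versus Sham were 1433, against 455 without MI_ART 1 and 2896 without MI 4. The fewest reads on any of the 9 genes were 34, for Tnc in Sham 3.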

Other observations

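Further marker lists were read in the same fit. Over all genes, 18.8% were called higher and 14.3% lower in MI versus Sham, and 12.9% and 7.41% in MI_ART versus Sham. In MI_ART versus MI 6.96% had an unadjusted p under 0.05. A single call to the lower side among 8 genes is thus near the share of all genes in MI versus Sham. Epicardial and mesothelial markers gave 4 of 10 called higher and none lower in MI versus Sham and 2 higher in MI_ART versus Sham, with sums of 106 to 251 CPM in MI_ART, 216 to 343 CPM in MI and 90.6 to 147 CPM in Sham. Aldh1a2, which makes retinoic acid, rose 4.88-fold in MI and 5.15-fold in MI_ART relative to Sham (edgeR adjusted p 1.87e-04 and 2.82e-04), and Upk3b averaged 25.7 CPM in MI_ART, 43.3 in MI and 39.2 in Sham (edgeR adjusted p 0.845 for MI versus Sham). Lymphatic endothelial markers gave 1 of 7 higher and 4 lower in MI versus Sham, 1 and 0 in MI_ART versus Sham. Prox1, the lymphatic regulator, averaged 34.2 CPM in MI_ART, 21.3 in MI and 57.8 in Sham (edgeR adjusted p 0.0250 for MI versus Sham). Ccl21a averaged 29.7, 16.8 and 31.7 CPM in the same order (edgeR adjusted p 0.0533). Its log2 of -0.91 for MI versus Sham became -0.07 with total counts. Lyve1, called lower at log2 -0.71, lay within the 0.88 by which total counts moved the median of all genes. Tendon, cartilage and valve markers gave 4 of 10 higher and 1 lower in MI versus Sham and 2 and 1 in MI_ART versus Sham. Their sums were 34.6 to 73.3 CPM in MI_ART and 63.1 to 93.1 CPM in Sham. In MI they were 42.3, 41.6 and 109 CPM in MI 2 to 4, so MI 4 stood apart. Comp, which binds collagen and fibronectin, averaged 8.94 CPM in MI_ART, 27.0 ± 24.6 (SD) in MI and 8.22 in Sham (edgeR adjusted p 0.0355 for MI versus Sham). Cytl1 averaged 10.9, 5.31 and 25.7 CPM in the same order (edgeR adjusted p 0.00895).

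Schwann and glial markers gave 0 of 8 higher and 1 lower in MI versus Sham and none in MI_ART versus Sham, and Mbp, at 18.4 CPM in MI_ART, 13.3 in MI and 6.56 in Sham, was not called in either. Adipocyte markers gave 0 of 8 higher and 1 lower in each comparison with Sham. The call was Fabp4, which averaged 488 CPM in MI_ART, 424 in MI and 797 in Sham and whose difference of MI_ART from Sham total counts turned to log2 0.04, while Cfd averaged 38.9, 101 and 34.4 CPM and was not called. Of 8 plasma-protein genes of hepatocytes 2 were tested, Ahsg, at 4.80 CPM in MI_ART, 5.83 in MI and 6.31 in Sham, and Ttr, at 9.14, 0.912 and 0.156 CPM. Ttr was called in MI_ART versus Sham and not in MI versus Sham (edgeR adjusted p 0.0276 and 0.212). It had 25.8, 0.425 and 1.17 CPM in MI_ART 1 to 3, so that MI_ART 1 carries the mean, as it does that of Bcan. Fgb was at 0 counts in every group, and Alb and Apoa1, which were not tested, averaged 0.0329 and 0.0333 CPM in MI_ART. Atrial cardiomyocyte markers gave 0 of 8 higher and 1 lower in MI versus Sham and none in MI_ART versus Sham. The lower call was Kcna5 (log2 -0.81, edgeR adjusted p 0.0498). Nppa averaged 4453 ± 4619 CPM in MI_ART, 14525 ± 5254 in MI and 3339 ± 1926 in Sham (SD). Myl4 averaged 582 ± 783, 1911 ± 875 and 878 ± 507 CPM in the same order, and neither was called. Sums of the atrial list ran from 1328 to 12412.5 CPM within MI_ART. Ventricular markers gave 0 of 8 higher and 4 lower in MI versus Sham and 0 and 2 in MI_ART versus Sham. Myl2 fell 4.60-fold and Myl3 3.43-fold in MI (edgeR adjusted p 4.84e-04 and 6.59e-04). In MI_ART versus MI no gene of these 8 lists was called by edgeR, and an unadjusted p under 0.05 was reached by 2 epicardial, 3 lymphatic, 2 tendon, 2 Schwann, 0 adipocyte, 1 hepatocyte, 2 atrial and 3 ventricular markers.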
